A study of Homo sapiens with 3 samples.

Results

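The comparison described here set K562 cells sorted for high surface HLA-B against the unsorted pool of a different screen, the one that looked for cells with little MHC class I (MHC-I). It used 2 of the 3 libraries analysed, with 1 library on each side, and covered every gene with at least 1 single guide RNA (sgRNA) that had 10 or more reads in the unsorted pool. That left 20295 of the 20381 genes seen, through 174146 gene-targeting sgRNAs, beside 6260 safe-targeting sgRNAs (which cut genomic sites without known function) and 4301 non-targeting sgRNAs (which match no site). The unsorted pool of the sort's own screen, the high-screen control, is quoted beside these values to show what the choice of reference changes.

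K562 is an established human chronic myeloid leukaemia line with little MHC-I on its surface. The cells expressed the nuclease Cas9 and received a genome-wide knockout library with about 10 sgRNAs per gene by lentivirus (multiplicity of infection 0.3), with puromycin (1 μg/mL for 72 h) from 48 h after infection. Both screens added interferon-γ (IFN-γ) 24 h before sorting: 1 ng/mL in the high screen, sorted on days 18 and 25, and 25 ng/mL in the low screen, sorted on days 7 and 15. The unsorted pools were mutagenised cells kept in culture without selection, and their harvest day is not given. Sorted and reference cells therefore came from screens with unlike IFN-γ doses and sort days, and these cannot be told apart from the sort here. The title of the low-screen control and the name of its data differ in the antigen they give, and in either case it was read as the low screen's unsorted cells.

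MHC-I genes of such cells carry the repressive mark H3K27me3 beside the activating mark H3K4me3. Polycomb repressive complex 2 (PRC2) writes H3K27me3 through EZH2, with EED and SUZ12 as its other core subunits, and the variant complex PRC1.1, defined by PCGF1, ubiquitinates histone H2A. Menin, encoded by MEN1, and LEDGF, encoded by PSIP1, are components of the complexes of the H3K4 methyltransferases KMT2A and KMT2B. IFN-γ signals through its receptor and the kinases JAK1 and JAK2 to IRF1. An sgRNA that is enriched in the sort was more frequent among cells with high HLA-B than in the reference. A single enriched sgRNA does not tie this to the loss of its gene.

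The counts give only the gene that an sgRNA targets, without its sequence. The sgRNAs below are those the study used singly against 4 of the genes enriched here, shown to place the targeted parts of these genes. Whether the same sequences were in the pooled library is not given. Each is written 5′ to 3′ with the adjacent motif that Cas9 requires (PAM, NGG), read from GRCh37, in capitals.
MEN1 sgRNA 1: ctcctacttcaaggatcGGG
MEN1 sgRNA 2: gtcggccacgggaaagtAGG
MEN1 sgRNA 3: attgggcccaaacactacccAGG
MTF2 sgRNA 1: gttatatgtgacaagtgTGG
MTF2 sgRNA 2: tgttactgctattgtggAGG
PCGF1 sgRNA 1: tttgctgcctatgcgcCGG
PCGF1 sgRNA 2: gccgaggttgctcagtgcTGG
PCGF1 sgRNA 3: gtcacccagcccactggggaAGG
PSIP1 sgRNA 1: gcaaaccaaataaaagaaaAGG
PSIP1 sgRNA 2: agtaaggaaatatatccttTGG
PSIP1 sgRNA 3: taggtagacgaagttcctgaTGG

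Each of these sgRNAs matched its gene once with a PAM, and each cut site lay in a coding exon of the GENCODE annotation. In MEN1, on chromosome 11, sgRNAs 1 (chr11:64577173-64577189, minus strand) and 2 (chr11:64577336-64577352, plus strand) fell in exon 2 of the reference transcript and sgRNA 3 (chr11:64575450-64575469, plus strand) in exon 3. The MTF2 pair on chromosome 1 fell in exon 4 (chr1:93580316-93580332) and exon 6 (chr1:93581147-93581163), both on the plus strand. In PCGF1 on chromosome 2 they fell in exon 2 (chr2:74734216-74734231, minus strand), exon 5 (chr2:74733162-74733179, plus strand) and exon 4 (chr2:74733310-74733329, minus strand). In PSIP1 on chromosome 9, sgRNAs 1 (chr9:15490048-15490066, minus strand) and 2 (chr9:15490088-15490106, plus strand) lay in exon 4 and sgRNA 3 (chr9:15506619-15506638, minus strand) in exon 3.

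The sorted library held 34266318 matched reads and the low-screen control 98426251, so the reference was the deeper side. Of the tested sgRNAs 48.9% had no read in the sort, and 442 of the 20295 tested genes had no sorted read on any tested sgRNA. Background came from the safe-targeting sgRNAs, whose log2 ratios had a median of -4.80 and a middle 50% from -7.0 to -0.72. A log2 ratio above 1 was reached by 12.2% of safe-targeting sgRNAs (exact Clopper-Pearson 95% interval 11.4 to 13%), 18.5% of non-targeting sgRNAs (17.3 to 19.7%) and 13.3% of gene-targeting sgRNAs. Single sgRNAs of any kind could reach high ratios: 1 non-targeting sgRNA had 40267 sorted reads against 125 in the low-screen control (log2 ratio 9.84). The intervals take each sgRNA as 1 independent unit and hold no spread between replicate libraries. The counts are of PCR reads, and no molecular identifiers were used. Among genes, 18531 (91.3%) had a median log2 ratio below -1, 122 (0.601%) had one above 1, and the median over all genes was -4.84. A gene near 0 was therefore far above most genes of this library.

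Whether an sgRNA was found in the sort at all followed its count in the reference. Safe-targeting sgRNAs with under 100 reads in the low-screen control were missing from the sort in 69.1% of cases (64.9 to 73.1%), against 49.6% (47.4 to 51.8%) at 300 to 599 reads and 26% (23 to 29.3%) at 1000 reads or more. Gene-targeting sgRNAs gave 67.5, 50.4 and 25.4% in the same classes. An sgRNA missing from the sort has a ratio set by its reference count alone, and the median of such ratios went from -4.69 in the lowest class to -8.70 in the highest for safe-targeting sgRNAs. The lowest ratios thus belonged to sgRNAs that were abundant in the reference.

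**Figure D1:**
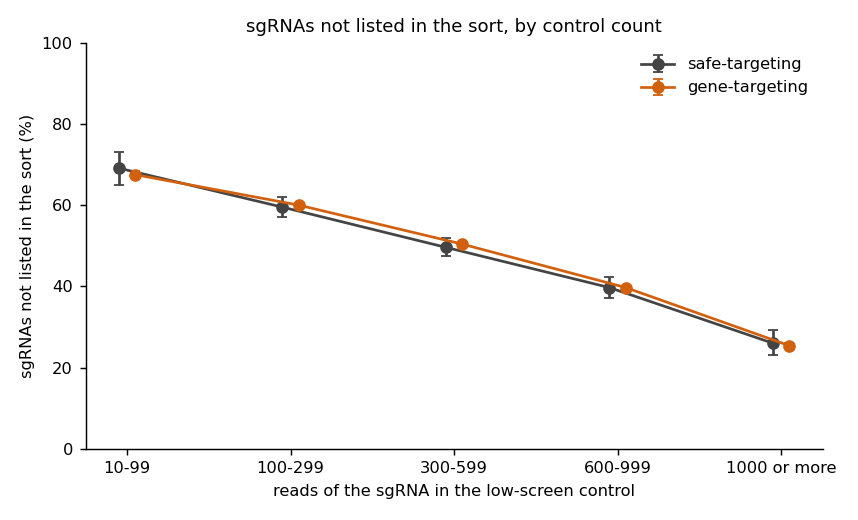
Percent of tested sgRNAs not listed in the HLA-B high sorted library (vertical axis) by read count of the sgRNA in the low-screen control (horizontal axis), for safe-targeting and gene-targeting sgRNAs, with exact 95% intervals as bars. Both lines fall together from 69.1 and 67.5% under 100 reads to 26 and 25.4% at 1000 reads or more.

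Loss of MEN1, of the polycomb genes EZH2, MTF2 and PCGF1, of the IFN-γ feedback inhibitor SOCS1, of the membrane-scission factor CHMP5 and of PSIP1 was enriched in the HLA-B high cells with this reference. These were the 7 genes that passed adjustment over all genes. Ranking used redundant siRNA activity (RSA), the study's method, which asks whether the sgRNAs of a gene stand together at one end of the ranking of all sgRNAs. Calls required an RSA p under 0.001, reached at a rank that at least 4 of the gene's sgRNAs met or exceeded (the best rank), and the exact adjusted p is the Benjamini-Hochberg value from the exact null of the score. Such a p reflects only how far the sgRNAs of 1 gene agree within these libraries and holds no spread between replicate screens. In all 128 genes (0.631%) were called enriched, 9 of them with RSA p below 1e-05 (High class), 12 below 0.0001 (Moderate) and 107 in the Low class.

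**Figure D2:**
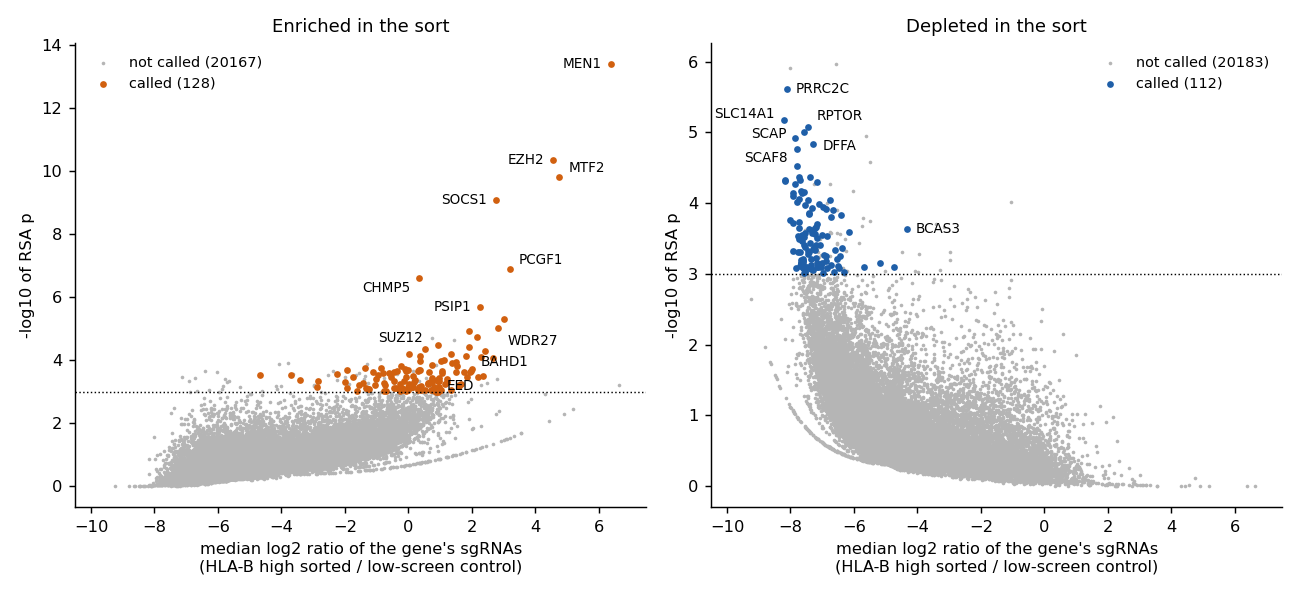
Each point is 1 of 20295 genes, with the median log2 ratio of its sgRNAs (HLA-B high sorted over low-screen control) on the horizontal axis and -log10 of its RSA p on the vertical axis, for enrichment (left) and depletion (right). Coloured points were called (128 enriched and 112 depleted) and the dotted line is the p of 0.001. MEN1, EZH2, MTF2 and SOCS1 stand clear of the other enriched genes, whereas no called depleted gene stands clear of its neighbours. Grey points above the line had under 4 sgRNAs at their best rank.

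MEN1 ranked first. Reads summed over its sgRNAs came to 3345 CPM (counts scaled to matched reads) in the sort, 29.6 in the low-screen control and 34.7 in the high-screen control, a 113-fold excess over the low-screen control. Over its 9 tested sgRNAs the median log2 ratio was 6.39 and the quartiles 1.93 and 7.60, with 7 above 1 (RSA p = 4.01e-14, exact adjusted p = 4.8e-09). The enrichment was spread over its sgRNAs: 5 of them went from 623, 366, 252, 416 and 138 reads in the low-screen control to 42094, 35873, 17805, 12173 and 5493 in the sort, and the most abundant accounted for 36.7% of all sorted MEN1 reads. The 2 tested sgRNAs with ratios below 1 had 8 and 1 sorted reads against 286 and 202 in the reference.

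PSIP1, which encodes the partner of Menin that binds H3K36-methylated chromatin, was called here. Its CPM was 1395 in the sort, 49.4 in the low-screen control and 33.8 in the high-screen control, 28.2-fold above the former. The median log2 ratio was 2.26, and 7 of 9 sgRNAs exceeded 1 (RSA p = 2.08e-06, exact adjusted p = 0.0435). All 7 stood at or beyond its best rank, whereas against the high-screen control 3 did, and there PSIP1 passed adjustment (exact adjusted p = 0.00797) without being called. One of its sgRNAs, with 266 sorted reads, had 253 reads in the low-screen control and 9 in the high-screen control, so that the minimum count kept it with this reference and dropped it with the other. Neither methyltransferase was called: KMT2A had a median log2 ratio of -3.13, 1 of its 9 sgRNAs being above 1, and KMT2B one of -6.02 with 9 of 9 below -1.

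EZH2, the catalytic subunit of PRC2, had 2062 CPM in the sort, 41 in the low-screen control and 25.6 in the high-screen control, 50.2-fold above the low-screen control. Its median log2 ratio was 4.56, and 7 of 9 sgRNAs exceeded 1 (RSA p = 4.51e-11, exact adjusted p = 3.11e-06), and these 7 lay between 3.61 and 6.95. The remaining 2 had no sorted reads, against 226 and 133 reads in the low-screen control. No sgRNA of EZH2 had an intermediate ratio.

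The other core subunits of PRC2 were weaker with this reference. EED, which binds H3K27me3, had 354 CPM in the sort against 52.7 and 30 in the low- and high-screen controls, 6.72-fold and 11.8-fold, and a median log2 ratio of 0.92, with 5 of its 10 sgRNAs above 1. It was called in the Low class, at rank 70, without passing adjustment (exact adjusted p = 0.618), whereas its median was 3.03 and its exact adjusted p 0.016 with the high-screen control as reference. SUZ12, the scaffold of the complex, had 825 CPM in the sort against 40.6 and 17.2, a median of 0.74 and 5 of 10 sgRNAs above 1, and was not called because 2 sgRNAs stood at its best rank (RSA p = 2e-05, exact adjusted p = 0.259). In the high-screen control 6 of its sgRNAs reached the minimum, all 6 were above 1, and their median ratio was 2.54. With that reference SUZ12 passed adjustment (exact adjusted p = 0.00797) but was not called, with 2 sgRNAs at its best rank. Summed over all sgRNAs, the high-screen pool held less than the low-screen pool of EZH2, EED and SUZ12 (log2 of the CPM ratio -0.68, -0.81 and -1.24). This was not particular to PRC2, as PSIP1 (-0.55), CHMP5 (-0.55), PCGF1 (-0.36) and SOCS1 (-0.30) were also lower. MEN1 (0.23), MTF2 (0.49), RBBP4 (0.42) and RBBP7 (0.35) were higher. EZH1, RBBP4 and RBBP7 were not called, with medians of -6.39, -6.28 and -4.54. RBBP4, a histone-binding subunit shared with other complexes, had 0 sorted reads on its 6 tested sgRNAs, at least 176-fold lower than the low-screen control when 3 reads over the gene are taken as the floor.

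MTF2, the polycomb-like subunit that brings PRC2.1 to CpG islands, had the largest summed excess of all genes with reads in the low-screen control: 9872 CPM in the sort, 28.9 in the low-screen control and 40.7 in the high-screen control, 341-fold above the former. A single sgRNA held 92.5% of these reads, with 312796 in the sort, 439 in the low-screen control and 211 in the high-screen control, the highest log2 ratio of all tested sgRNAs (11). Its 8 tested sgRNAs had a median log2 ratio of 4.75 with 5 above 1 and 3 not listed in the sort (RSA p = 1.55e-10, exact adjusted p = 6.05e-06). The median depended on which sgRNAs reached the minimum. The low-screen control did not list 2 sgRNAs, which had 36 and 0 sorted reads, and the high-screen control held 96 and 10 reads of them. With all 10 tested against the high-screen control the median was 0.53, 5 sgRNAs were above 1 and 5 below -1, and MTF2 passed adjustment (exact adjusted p = 0.000496) but had 3 sgRNAs at its best rank and was not called. The call against the low-screen control ended when that control had to hold 50 reads, since 1 of the 4 sgRNAs at the best rank had 12 reads there.

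Of the 6 PRC2.1 genes listed, MTF2 was the 1 called. Its paralogs PHF1 and PHF19 had medians of -1.73 and -6.38, C17orf96 (which encodes EPOP) -3.27, and LCOR and LCORL, from which the PALI proteins arise, -7.11 and -6.71. Neither subunit of PRC2.2 was called: JARID2, with 2 of 9 sgRNAs above 1, had a median of -0.97, and AEBP2 one of -5.71 with 1 of 10 above 1. The median over the 6 PRC2.1 genes was -4.82, that over the 6 PRC2 core genes -1.90, and that over all genes -4.84. Lists of 6 and 2 genes would mostly hold no call at the shares called over all genes (0.631% enriched and 0.552% depleted). The missing calls therefore do not set these subunits apart.

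PCGF1 was the 1 gene called of 10 in PRC1.1. It had 1019 CPM in the sort, 75.2 in the low-screen control and 58.7 in the high-screen control, 13.5-fold above the former. Its 10 sgRNAs had a median log2 ratio of 3.19, 7 of them were above 1 and none was below -1 (RSA p = 1.29e-07, exact adjusted p = 0.00431). Every sgRNA of PCGF1 was found in the sort, from 150 to 14606 reads, and the references differed little in its median (2.99 with the high-screen control). Of its partners RNF2, the H2A ubiquitin ligase, came nearest, with an RSA p of 0.00113 and a median of -2.62. Only 1 of its 10 sgRNAs was above 1 and 8 were below -1, but all 10 stood at or beyond its best rank. Against the high-screen control RNF2 was called enriched (RSA p = 0.000899) without passing adjustment (exact adjusted p = 0.851). RING1, RYBP, YAF2, SKP1, KDM2B, BCOR, USP7 and BCORL1 had medians from -0.78 for RING1 to -7.19 for BCORL1. None of the 13 canonical PRC1 genes, the 15 genes of other variant PRC1 complexes or the 9 PR-DUB genes was called, with medians over the lists of -3.44, -5.19 and -5.12. With 0.631% of all genes called enriched and 0.552% depleted, lists of this size would mostly hold no call, so these counts do not set the complexes apart.

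**Figure D3:**
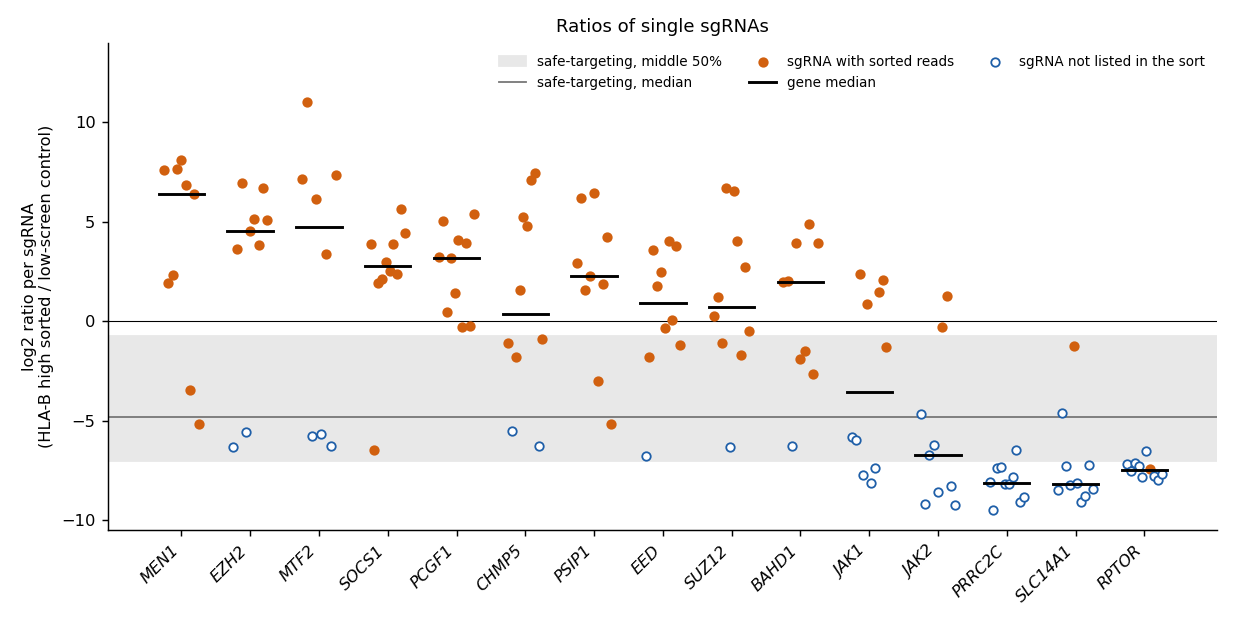
Log2 ratio of each tested sgRNA (vertical axis, HLA-B high sorted over low-screen control) for 15 genes. Filled points had sorted reads, open points were not listed in the sort, black bars are gene medians, and the grey band and line give the middle 50% (-7.0 to -0.72) and median (-4.80) of safe-targeting sgRNAs. All 10 sgRNAs of PCGF1 lie above the grey band, EZH2 and MTF2 split into high and missing sgRNAs, and all 10 of PRRC2C are missing.

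BAHD1, a reader of H3K27me3 that recruits a histone deacetylase corepressor, was called in the Low class at rank 40. It had 596 CPM in the sort, 42.3 in the low-screen control and 42.7 in the high-screen control, and a median log2 ratio of 1.98 with 5 of 9 tested sgRNAs above 1 (RSA p = 0.000218, exact adjusted p = 0.579). Its most abundant sorted sgRNA did not enter the test. With 9151 sorted reads it held 44.8% of the gene's sorted reads, but it was not listed in the low-screen control. The high-screen control held 61 reads of it, and with that reference BAHD1 passed adjustment (RSA p = 1.1e-07, exact adjusted p = 0.00305). None of the other 6 genes of that corepressor list was called.

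SOCS1, which blocks the IFN-γ receptor kinases, was enriched through nearly all of its sgRNAs. It had 886 CPM in the sort, 77.6 in the low-screen control and 62.9 in the high-screen control, an 11.4-fold excess over the former. Of its 10 sgRNAs 9 were above 1, with sorted reads from 799 to 9874, and the tenth had 1 sorted read against 508 (median log2 ratio 2.76, RSA p = 8.11e-10, exact adjusted p = 3.11e-05). SOCS1, MEN1, EZH2, PCGF1 and PSIP1 were the 5 genes with at least 7 sgRNAs above 1. The other 10 negative regulators listed, among them PTPN2 (median -2.31) and USP18 (-1.25), were not called, and the median over the 11 was -5.53.

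None of the 6 genes that carry the IFN-γ signal was called in either direction, and their medians lay between -6.71 and -3.54. With 0.631% of all genes called enriched and 0.552% depleted, short lists such as this and those above would mostly hold no call. JAK2 came nearest to a depletion call (RSA p = 0.000267, exact adjusted p = 0.592) with 2 sgRNAs at its best rank. Of its 9 tested sgRNAs 7 were not listed in the sort, with 72 to 1725 reads in the low-screen control, and 1 was above 1. IFNGR1 and IFNGR2, the receptor chains, had medians of -5.77 and -4.23, and IRF1, the transcription factor at the end of the pathway, one of -6.04. JAK1 split: 3 of 10 sgRNAs were above 1, 5 were not listed in the sort, and its median was -3.54 with this reference and 1.05 with the high-screen control, where 1 of the missing sgRNAs had 4 reads and was not tested.

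HLA-B itself, the sorted protein's gene, was not called: 6 of its 7 tested sgRNAs were not listed in the sort and its median was -7.43 (depletion RSA p = 0.00224, exact adjusted p = 0.829), with 8.67 CPM in the sort, 44.3 in the low-screen control and 45.7 in the high-screen control. B2M, the light chain of MHC-I, had a median of -6.36 with 9 of 10 sgRNAs below -1 and was not called. HLA genes resemble each other in sequence, and reads matching several sgRNAs were removed by the authors. None of 9 genes of the MHC-I enhanceosome was called, NLRC5 (median -5.55) among them. At the shares called over all genes (0.631% enriched and 0.552% depleted) a list of 9 would mostly hold no call.

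CHMP5, an ESCRT-III protein of endosomal sorting, was the 1 gene called among 26 ESCRT genes, where 0.631% of all genes were called enriched. It had 955 CPM in the sort, 32.2 in the low-screen control and 22 in the high-screen control, 29.7-fold above the former, with 61.7% of the sorted reads on 1 sgRNA. Its sgRNAs were split: 5 of 10 were above 1 and 4 below -1, so that the median log2 ratio was 0.35 (RSA p = 2.41e-07, exact adjusted p = 0.00673). Without its most extreme sgRNA the median was -0.88 and the call was lost. With the high-screen control 8 were tested and the median was 2.47. The sgRNAs that this reference added had 658 and 224 reads in the low-screen control, 5 and 6 in the high-screen control, and 107 and 0 in the sort.

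**Figure D4:**
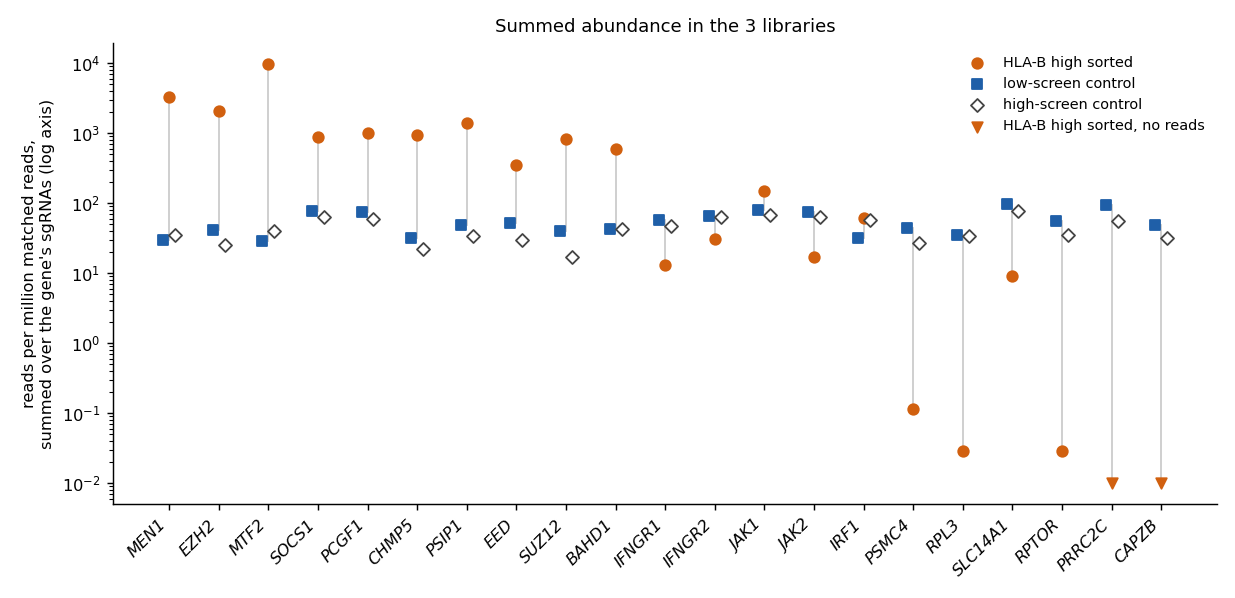
CPM summed over all sgRNAs of a gene (vertical log axis) in the HLA-B high sorted library (circles), the low-screen control (squares) and the high-screen control (diamonds) for 21 genes. Triangles at the foot of the axis mark 0 sorted reads (PRRC2C and CAPZB). Both unsorted pools lie between 17.2 and 97.4 for every gene shown, while the sort runs from 0 to 9872.

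Other genes among the 20 with the smallest RSA p did not pass adjustment. For WDR27, with 5 of 8 above 1, the median was 2.83 (exact adjusted p = 0.14). For BEND3, a DNA-binding repressor, CYTL1, VSIG10, CD276 (the immune checkpoint ligand B7-H3), TMEM200C, B4GALNT2 (a glycosyltransferase) and INSIG1 (which retains the sterol sensor SCAP in the endoplasmic reticulum) medians lay between 1.33 and 2.40, with 5 or 6 sgRNAs above 1 each. Each of these 7 had at least 1 sgRNA not listed in the sort. Against the high-screen control WDR27 (median 1.39), CYTL1 (2.03) and B4GALNT2 (1.53) were also called. BEND3 (0.09), VSIG10 (0.31), CD276 (-0.94), TMEM200C (0.14) and INSIG1 (-0.28) were not called with that reference.

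A different shape was found in TENC1, PPM1H, TMTC1 and TRAF2. TMTC1 had 55.1 CPM in the sort, 51.2 in the low-screen control and 54.6 in the high-screen control, a median of 0.02 and 1 of 9 sgRNAs above 1. All 9 sgRNAs were found in the sort, in a library that lacked 48.9% of the tested sgRNAs, and all 9 stood at or beyond the best rank. PPM1H, a phosphatase, had a median of 0.52 with 2 of 8 above 1. Its 2 untested sgRNAs had 0 sorted reads, against 235 and 131 in the high-screen control. With that control as reference the PPM1H median was 0.30 and the gene was not called. TENC1 (TNS2 in the annotation) had a median of 0.94 with 5 of 10 above 1. For TRAF2, an adaptor of TNF receptor signalling, it was 0.38 with 3 of 10. TENC1 and TRAF2 had all 10 sgRNAs tested and were also called against the high-screen control (medians 0.77 and 0.23). Of the 128 called genes 33 had every tested sgRNA at or beyond the best rank, 43 had fewer than 4 sgRNAs above 1, 47 had a median below 0, and 12 had fewer CPM in the sort than in the reference. The summed fold over the 128 ran from 0.592 to 341 with a median of 2.43, against a median of 0.672 over all genes.

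Single called members were found in several other lists. TFE3, a lysosomal and autophagy transcription factor, had a median of 1.07 (5 of 9 sgRNAs above 1), LRRC8A, the essential subunit of the volume-regulated anion channel, 1.74 (6 of 10), SLC34A3, a phosphate transporter, 1.52 (6 of 10), and MRPS7 of the mitochondrial ribosome 2.67 (4 of 6). Their exact adjusted p lay between 0.512 and 0.579. TBK1 was not called here: its median was 0.77 with 4 of 9 sgRNAs above 1, 1 sgRNA held 81.5% of its sorted reads (23685 against 189 in the low-screen control), and 1 stood at its best rank (RSA p = 0.000487, exact adjusted p = 0.618). In all 15 of 42 lists held a called enriched gene, 4 a called depleted gene and 24 neither. Over all genes 0.631% were called enriched and 0.552% depleted, so lists of 6 to 31 genes would mostly hold no call. Lists without a call in either direction included the COMPASS core (6 genes, median over the list -6.25), KMT2C/D (7, -1.65), TIP60/NuA4 (18, -5.43), BAF and PBAF (24, -5.05), HUSH and SETDB1 (7, -6.04), DNA methylation (11, -5.46) and Mediator (31, -5.63). Of 388 olfactory receptors, a family with no known role in K562 cells, 0 were called enriched and 2 depleted (0.631% and 0.552% of all genes). Against the high-screen control 2 of 389 were called enriched and 0 depleted.

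Depletion calls numbered 112 (0.552%), of which 4 were High, 20 Moderate and 88 Low, and none passed adjustment. The smallest exact adjusted p was 0.0901, while 1133 genes had an unadjusted exact p under 0.05 against 1015 expected, and with the high-screen control as reference 1 gene passed. The 112 genes had medians from -8.20 to -4.34. Of their 1055 tested sgRNAs 823 (78%) were not listed in the sort, against 48.9% of all tested sgRNAs, and the median count of their sgRNAs in the low-screen control was 583 reads against 426 for all gene-targeting sgRNAs. Depletion calls were drawn from the low end of the ranking, where missing sgRNAs with high reference counts stand. Both differences therefore come with the selection and are no separate result. The part of these high reference counts in the calls was not tested.

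PRRC2C, which encodes an RNA-binding protein of stress granules (chromosome 1, 171454669 to 171562650 in GRCh37), had the smallest RSA p of the called genes. None of its 10 sgRNAs had a sorted read, against 255 to 2081 reads each in the low-screen control, or 93.3 CPM in sum and 55.8 in the high-screen control. With 3 reads as the floor it was at least 1065-fold lower (median log2 ratio -8.11, RSA p = 2.44e-06, exact adjusted p = 0.131). This fold, like those of RBBP4 and CAPZB, is set by the reference count and the chosen floor and is not a measured effect size. SLC14A1, the urea transporter that carries the Kidd blood group (chromosome 18, 43266990 to 43332485), kept 1 sgRNA with 311 sorted reads against 2143 and lost the other 9 (median -8.20, exact adjusted p = 0.221). Its CPM was 9.08 in the sort, 97.4 in the low-screen control and 77.7 in the high-screen control. PRRC2C and SLC14A1 were the 2 of the 10 depleted genes with the smallest p that were also called against the high-screen control.

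RPTOR, the substrate-binding subunit of mTORC1, had 1 sorted read in all, on 1 of its 10 sgRNAs, against 264 to 971 reads each in the low-screen control (median -7.45, exact adjusted p = 0.221). CAPZB, a subunit of the actin capping protein, had 0 sorted reads on 8 tested sgRNAs and was at least 551-fold lower. SCAP, the sterol sensor that escorts SREBP, was missing on 9 of 10 sgRNAs with the tenth above 1, and DFFA, the inhibitor of the apoptotic nuclease, on 9 of 9, while 1 DFFA sgRNA that the low-screen control did not list had 81 sorted reads. SCAF8, AMMECR1L, MOCS3 (a sulfurtransferase of molybdenum cofactor synthesis) and MNAT1 (a subunit of the CDK-activating kinase) had medians between -7.81 and -7.37. Of the 112 genes 70 had no sgRNA above 1, and 11, H2AFZ and COX16 among them, had no sorted read on any tested sgRNA. Over all 20295 tested genes 442 had none, so complete absence from the sort was not particular to the called genes.

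METTL21C and DPP9 had smaller RSA p than PRRC2C and were not called, with 2 and 3 sgRNAs at their best rank. METTL21C, a lysine methyltransferase of muscle, had a median of -6.56 and DPP9, a serine peptidase that restrains inflammasomes, one of -8.02, and each had an exact adjusted p of 0.0901. Both were singled out after their values were seen. METTL21C was called against the high-screen control, where it was the 1 gene that passed adjustment (exact adjusted p = 0.0262).

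Lists of genes needed for growth held single depletion calls, too few to set against the 0.552% of all genes called depleted. In the proteasome 1 of 31 genes was called, PSMC4, an ATPase of the regulatory particle, with 0.117 CPM in the sort against 44.5 in the low-screen control and 26.7 in the high-screen control. In the large ribosomal subunit it was 1 of 44, RPL3, with 1 sorted read over its 7 tested sgRNAs, and in the mitochondrial ribosome 1 of 77, MRPL32, with 0 reads. None of 30 core spliceosome genes, 31 small ribosomal subunit genes, 12 RNA polymerase II genes or 35 tRNA synthetases was called in either direction. The medians over these lists were -5.53 (proteasome), -5.49 (large subunit), -5.53 (mitochondrial ribosome), -5.99 (spliceosome), -5.18 (small subunit), -5.48 (polymerase) and -5.71 (synthetases), against -4.84 over all genes and -5.10 over olfactory receptors.

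Against the high-screen control 107 of 20314 genes were called enriched and 83 depleted, with 11 and 1 passing adjustment. The sorted library is common to both comparisons, so their calls are not independent. Of all 128 called enriched genes 45 were also called with the other reference, and of the 112 called depleted genes 14 were. Large moves of the median among called enriched genes were those of PURB (-3.40 with the low-screen control, 1.08 with the high-screen control), MTF2 (4.75 and 0.53), TFR2, a transferrin receptor (2.01 and -1.35), and CD276 (2.40 and -0.94). PURB, a single-stranded DNA-binding repressor, was called with its median below 0 because 4 of its 10 sgRNAs, with 692 to 2658 sorted reads, stood between 2.84 and 3.49, while 5 were not listed in the sort. Among called depleted genes the largest moves were those of TMEM213 (-7.83 and -4.13), WDR83OS (-7.58 and -4.92), SCAF8 (-7.81 and -5.32), AMBN (-7.33 and -5.21) and YOD1 (-7.93 and -6.15). The unsorted pools themselves differed sgRNA by sgRNA: the log2 ratio of high- over low-screen control had a median of -0.14 for safe-targeting sgRNAs, and 90% of them lay between -2.08 and 1.92.

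**Figure D5:**
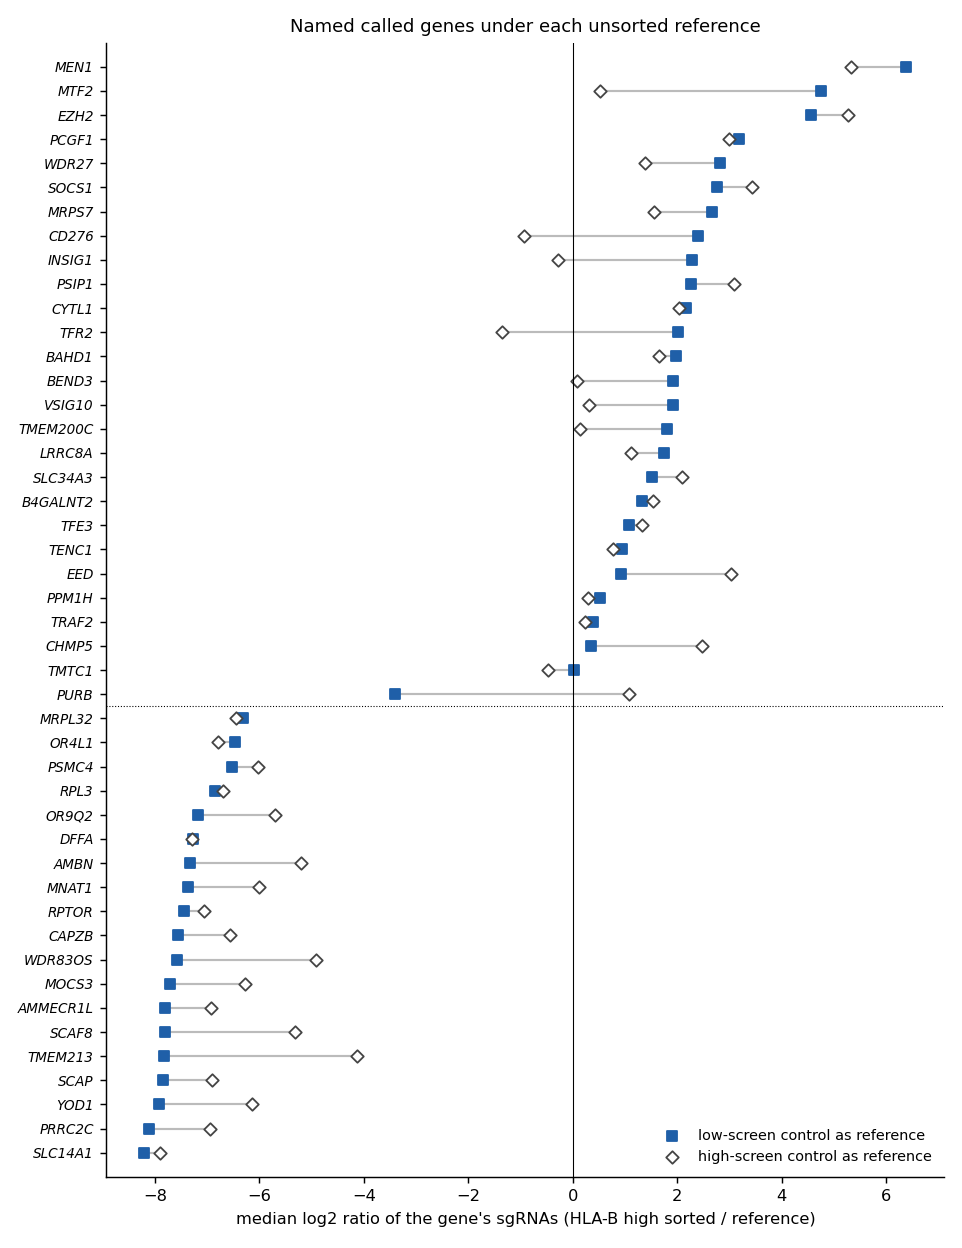
Median log2 ratio of the sgRNAs of 27 called enriched (above the dotted line) and 19 called depleted genes (below it), with the low-screen control (squares) or the high-screen control (diamonds) as the reference (horizontal axis). The sorted library is the same in both. MEN1 (6.39 and 5.33), EZH2 (4.56 and 5.27) and PCGF1 (3.19 and 2.99) stay high with either reference. By contrast, MTF2, CD276, TFR2 and PURB among the enriched genes and TMEM213 among the depleted genes (-7.83 and -4.13) move by more than 3.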

How the data were processed

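Genomic DNA of HLA-B high sorted cells and of unsorted pools was amplified at the sgRNA cassette and sequenced. The authors trimmed reads, aligned them to the sgRNA library with Bowtie2 (bcl2fastq and cutadapt are also named in the submitters' notes, versions not stated), removed reads that aligned to several sgRNAs and deposited raw read counts per sgRNA. Counts are to the sgRNA library, so no genome build applies to them. Gene positions come from GENCODE release 44 on GRCh37.

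From the deposited counts, reads without a matching sgRNA were left out (21.9% in the sort, 12.1% and 20.6% in the low- and high-screen controls). An sgRNA absent from a library was given a count of 0. The sgRNAs with at least 10 reads in the low-screen control were kept, 1 read was added to each count, and log2 ratios were scaled to matched reads (34266318 in the sort, 98426251 and 22562241 in the controls). Gene CPM sums include sgRNAs under the minimum. Genes were scored with RSA in Python (version 3.11.15; scipy 1.17.1, pandas 2.3.3, numpy 2.4.6), with the exact null of the score adjusted by Benjamini-Hochberg over all genes. The scripts were tested on simulated data. With 1 library a side no model of replicate spread was possible.

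The members and gene lists were chosen with earlier results of these data known. Named genes were the 20 called enriched and 10 called depleted genes with the smallest RSA p, genes passing adjustment, all members of the PRC2, PRC1.1, KMT2A/B and IFN-γ activator lists, called members of the other lists, and, in each direction, the 5 called genes whose median differed most between references. A few genes that these rules select are not reported here. Other genes named with values were chosen after their values were seen. The minimum count, pseudocount, depth, call rule, reference and scaling were varied.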

Additional observations from a re-analysis of the deposited data

Results flagged for a closer look

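The sorted library held reads of sgRNAs that could not enter the comparison, because the low-screen control listed fewer than 10 reads of them. There were 5107 such sgRNAs with sorted reads among 15975 under the minimum, and they held 2.39% of the matched sorted reads. Of these, 155 had at least 1000 sorted reads. The most abundant targeted PINK1, the mitochondrial kinase of mitophagy, with 12319 sorted reads, 0 in the low-screen control and 12 in the high-screen control. A safe-targeting sgRNA followed with 9348, 0 and 41 reads, then the BAHD1 sgRNA with 9151, 0 and 61 reads, and an sgRNA of PDCD4, an inhibitor of translation initiation, with 7964, 0 and 107 reads. Of the 15975 sgRNAs 10981 reached 10 reads in the high-screen control. Why the low-screen control lacked them was not tested.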

How the results depend on the processing

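Every comparison rested on 1 library a side, so differences between screens, sorts and cultures cannot be told apart. The sorted library lacked 48.9% of tested sgRNAs, and the ratio of such an sgRNA is set by its reference count. No paired analysis was possible because each group held 1 library. Ranking each gene without its most extreme sgRNA gave 202 enriched genes (105 of the 128 kept), 200 depleted genes (99 of the 112 kept) and 35 genes with a median above 1. Scaling to safe-targeting reads gave 207 genes with a median above 1. The other settings gave 100 to 139 enriched and 83 to 162 depleted genes, and the share of safe-targeting sgRNAs above 1 stayed between 11.6 and 12.3%. Under the high-screen control 45 of the 128 enriched and 14 of the 112 depleted genes were kept. In all 10 settings that scored genes again 22 enriched genes (MEN1, EZH2, PCGF1 and SOCS1 among them) and 9 depleted genes were kept. The MTF2 call was lost with a minimum of 50 reads, with the thinned control, without its most extreme sgRNA and with the high-screen control, that of EED with CPM and a pseudocount of 0.5, and that of BAHD1 with the latter and with the thinned control. The causes were not tested.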
